A study of Mus musculus with 2 samples.

Results

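Ccl2, Ccl7, Ccl12, Ccl8 and Ccl11 are mouse genes of secreted CC chemokines that draw monocytes, eosinophils and other leukocytes, and they were chosen by gene symbol, with earlier results of these same arrays known. All 5 were measured, each by 1 probe set with a single gene symbol, out of 22180 genes named in this way. Messenger RNA was measured on 2 Affymetrix arrays of RAW264.7 cells, an established mouse macrophage line: 1 of cells labelled HuR-deficient and 1 of wildtype cells. The Elavl1 gene encodes HuR, which binds U-rich and AU-rich stretches of mRNAs and protects many of its targets from decay. Each culture was stimulated for 8 hours with poly(I:C) HMW, a high molecular weight synthetic RNA duplex that mimics viral RNA, delivered with lipofectamine 2000 at a labelled dose of 1 mg/ml, which is high for a transfection, may be an error in the label and could not be checked. No culture without poly(I:C) was analysed here, so each value compares genotypes after stimulation. How HuR was removed, and whether the deficient line is a single clone, the labels do not state.

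CC chemokines are small proteins that signal through G-protein-coupled receptors on the cells they attract, and they carry a pair of adjacent cysteines that gives the class its name. Ccl2 is the main ligand of Ccr2, the receptor by which inflammatory monocytes leave the bone marrow and enter tissue. Ccl7 also acts through Ccr2, and through Ccr1 and Ccr3, while Ccl12 is a further Ccr2 ligand of the mouse. Ccl11, or eotaxin, recruits eosinophils through Ccr3, and mouse Ccl8 acts through Ccr8. Macrophages release Ccl2 in response to viral RNA and other microbial products, largely through NF-kappaB. Human CCL2 mRNA has been described as bound by HuR in airway epithelial cells.

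Each group was 1 array, so no value below has a replicate error, and no p-value or test of significance was possible. Values are RMA signals on the log2 scale, and a difference is the signal labelled HuR-deficient minus the wildtype signal. Genes were counted as higher or lower at a difference of 2-fold (1 on the log2 scale). A signal filter kept the 11905 genes whose higher value reached 4.38, the median of all gene values. Elavl1 itself had a signal of 7.75 on the array labelled HuR-deficient and 7.68 on the wildtype array, so its mRNA signal does not separate the arrays. It cannot check the label, because the labels do not say which part of the gene was disrupted. The 2 arrays had median signals of 4.10 (labelled HuR-deficient) and 4.08 (wildtype), and correlated across all probe sets with a Pearson r of 0.970.

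The 5 genes lie next to each other in the reference gene order on chromosome 11, as Ccl2, Ccl7, Ccl11, Ccl12 and Ccl8, with no other measured gene between them. The upstream sequences of Ccl12 and Ccl8, the last pair in this order, are shown because these are the members matched in the promoter table used here. The windows of Ccl2, Ccl7 and Ccl11 were not used here. They are the 250 bases before each start from RefSeq (GRCm38.p6, plus strand, 5′ to 3′), at chr11:82101595-82101844 for Ccl12 and chr11:82114935-82115184 for Ccl8, with TATA boxes in capitals.
Ccl12: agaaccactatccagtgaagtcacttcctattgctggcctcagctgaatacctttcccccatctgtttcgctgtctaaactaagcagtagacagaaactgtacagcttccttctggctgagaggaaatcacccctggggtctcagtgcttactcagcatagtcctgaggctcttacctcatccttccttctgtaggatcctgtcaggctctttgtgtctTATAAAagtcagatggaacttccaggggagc
Ccl8: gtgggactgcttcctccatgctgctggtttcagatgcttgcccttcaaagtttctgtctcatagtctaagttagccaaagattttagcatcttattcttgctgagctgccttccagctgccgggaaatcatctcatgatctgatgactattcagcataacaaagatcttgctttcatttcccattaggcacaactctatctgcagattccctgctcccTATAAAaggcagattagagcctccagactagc

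Both windows held 1 TATA box (TATAAA, sense strand), which began 31 bases before the start in Ccl12 and 32 bases before it in Ccl8. Such a box was found in 7.59% of 32851 promoter windows of the same length. No match in either window was found, on either strand, for the NF-kappaB consensus (held by 7.25% of windows), AP-1 (TGANTCA, 6.75%), the core of the interferon-stimulated response element (GAAANNGAAA, 2.98%), C/EBP (TTGCNNAA, 9.56%) or the GC box (GGGCGG, 32.7%). This says only that these letters are not in these 250 bases. In a global alignment the Ccl12 and Ccl8 windows shared 150 identical bases. The median of Ccl12 against 2285 other windows on the chromosome was 130 and the highest was 148, while for Ccl8 the median was 129 and 1 window reached more, with 152.

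Ccl2 was the gene with the lowest difference among all that passed the filter. Its probe set (17254041, Entrez Gene 20296) had a signal of 6.70 on the array labelled HuR-deficient and 11.19 on the wildtype array, a difference of -4.49, or 22.5-fold lower. The wildtype signal stood at percentile 98.7 of all genes and the signal labelled HuR-deficient at percentile 85.2. The Ccl2 signal was thus still well above the floor where it was low. Its wildtype signal lies where array readings compress, so the size of this fold is uncertain.

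Among the 286 genes with a wildtype signal at or above that of Ccl2, 3 were lower by the 2-fold criterion, Ccl2 included, and none was higher. Over all genes that passed, 1.11% were lower and 0.882% higher. Genes chosen for a high wildtype signal have little room to be higher, so nothing is read from these counts. The next lowest of the 286 after Ccl2 was Ywhaz, which encodes a 14-3-3 adaptor protein, with a difference of -1.48. Of 239 other genes whose wildtype signal lay within 0.5 of that of Ccl2, none was as low as Ccl2. Their central 95% differed by between -0.58 and 0.44, a band that compression of high array readings may narrow. Ccl2 was chosen with its difference known, so this places its value and tests nothing.

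Ccl7 had the fifth-lowest difference of the genes that passed. Its probe set (17254047, Entrez Gene 20306) had a signal of 4.77 on the array labelled HuR-deficient and 7.81 on the wildtype array, a difference of -3.04, or 8.25-fold lower. The lower signal was only 0.39 above the floor, where RMA compresses differences and a true signal was not separated from background, so the size of this fold is uncertain. Among 951 other genes with a wildtype signal within 0.5 of that of Ccl7, 2 were as low or lower. The lowest was Atp6v0d2, a vacuolar proton pump subunit, at -4.40. Ccl7 was chosen with its difference known, so its place among these genes is no test.

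Ccl12 ranked 12 from the bottom of the differences. Its probe set (17254059, Entrez Gene 20293) had a signal of 5.60 on the array labelled HuR-deficient and 8.03 on the wildtype array, a difference of -2.44, or 5.42-fold lower. The signal labelled HuR-deficient was 1.22 above the floor. Of 876 other genes with a wildtype signal within 0.5 of that of Ccl12, 3 were as low or lower. The lowest was Rgs1, a regulator of G-protein signalling, at -3.52. As for Ccl2 and Ccl7, the gene was chosen with its difference known, so its place here is no test.

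Ccl8 and Ccl11 gave weak signals in both genotypes. Ccl8 (probe set 17254065, Entrez Gene 20307) had a signal of 2.77 on the array labelled HuR-deficient and 3.08 on the wildtype array, a difference of -0.31. Among 4466 other genes with a wildtype signal within 0.5 of that value, 16.5% were as low or lower. Ccl11 (probe set 17254053, Entrez Gene 20292) had a signal of 4.14 on the array labelled HuR-deficient and 3.34 on the wildtype array, a difference of 0.81. Among 5235 other genes within 0.5 of its wildtype signal, 2.41% were as high or higher. Both genes stayed below the floor on both arrays and did not reach 2-fold, so no direction is given for either. Without detection calls, a weak signal cannot be called absent.

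**Figure D1:**
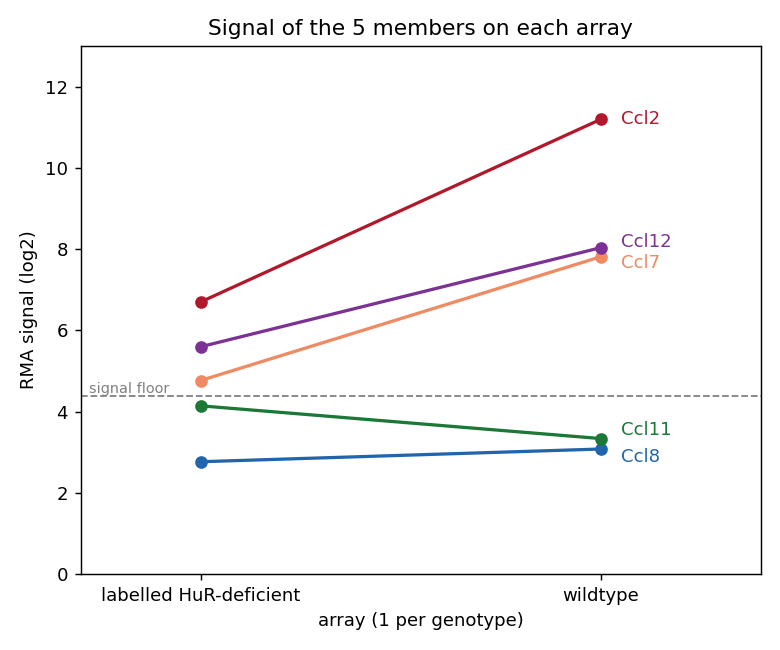
RMA signal (log2, vertical axis) of the 5 chemokine genes on the array labelled HuR-deficient (left) and the wildtype array (right), 1 array each, with lines joining the values of a gene and a dashed line at the signal floor of 4.38. Ccl2, Ccl7 and Ccl12 are lower on the left (differences of -4.49, -3.04 and -2.44), while Ccl8 and Ccl11 lie under the floor on both.

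In all, 3 of the 5 genes passed the filter, and those 3 were at least 2-fold lower, while none was higher. Over all genes that passed, 1.11% were lower by this criterion and 0.882% higher. The 5 genes were chosen with this contrast known, and the filter goes by the higher of a gene's values, so nothing is read from that count. Over all 5 genes, the median difference was -2.44, beside 0.00 over all 22180 genes. The difference of Ccl2 minus that of Ccl12 was -2.05. Gaps to Ccl7 are not given, because its signal labelled HuR-deficient lay so near the floor. The spread of differences between genes of like mean signal (a robust SD over the 500 nearest, which is not a spread between replicates) was 0.25 for Ccl2, 0.32 for Ccl7 and 0.32 for Ccl12. Percentiles and bands of signal place a probe set among the others on the array and do not compare mRNA levels between genes, since probes differ in how they bind. The 3 mRNAs are related in sequence, and a part of each other's signal read by shared probes was not tested.

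**Figure D2:**
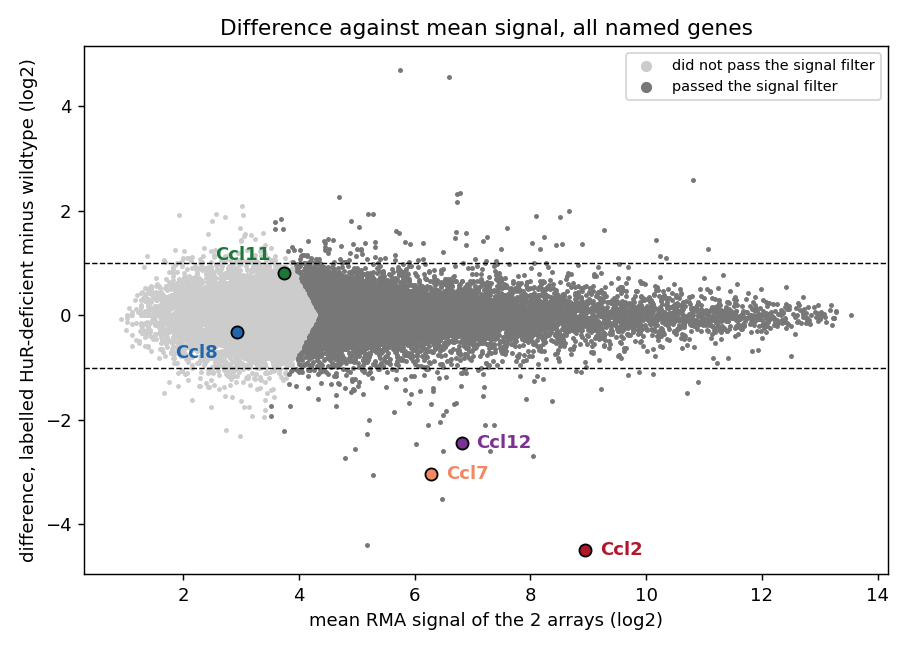
Difference (labelled HuR-deficient minus wildtype, log2) against the mean signal of the 2 arrays (log2) for all 22180 genes, with dashed lines at 2-fold. Dark points passed the signal filter. Ccl2 is the lowest of the genes that passed, at -4.49, with Atp6v0d2 (-4.40) close to it in difference. Ccl7 and Ccl12 lie among a few other low genes, and Ccl8 and Ccl11 lie within the cloud of weak signals.

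The genes nearest to each chemokine were found from their pairs of signals, by Euclidean distance over the 2 arrays. No gene had a pair close to that of Ccl2: the nearest was Ctla2b, at a distance of 1.81, with 6.69 on the array labelled HuR-deficient and 9.38 on the wildtype array. Hmox1, which encodes heme oxygenase 1, followed at 2.18, and Sdc1, which encodes the cell-surface proteoglycan syndecan-1, at 2.21. For Ccl7 the nearest were Rgs1 (distance 0.42), the C-type lectin gene Clec4a2 (0.43) and the metalloproteinase inhibitor gene Timp1 (0.55). For Ccl12 they were Clec4a2 (0.47), the proteasome subunit gene Psma8 (0.55) and Gm5150 (0.57). With 2 arrays, this likeness says only that the probe sets gave similar signals on both, not that the mRNA levels were alike.

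The genes around the chemokines were examined in the same reference order. Of the 10 measured genes on each side, 13 of 20 passed the filter. Of these, 1 was at least 2-fold lower and none was higher, and their median difference was 0.10. The shares over all genes that passed were 1.11% lower and 0.882% higher, and nothing is read from 1 call among so few neighbours. The lower one was 1700071K01Rik, the second measured gene before Ccl2, with a signal of 3.87 on the array labelled HuR-deficient, below the floor, and 5.40 on the wildtype array (difference -1.53). The gene between it and Ccl2, 5530401A14Rik, had weak signals of 2.71 (labelled HuR-deficient) and 2.55 (wildtype).

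On the other side, Ccl1, which encodes a T cell chemoattractant and directly follows Ccl8, had weak signals of 3.90 on the array labelled HuR-deficient and 4.15 on the wildtype array. The remaining neighbours that passed differed by between -0.27, for the zinc-finger gene Zfp207, and 0.42, for the DNA repair gene Rad51d. Ccl11 lies between Ccl7 and Ccl12 in this order and was below the floor on both arrays. Whether the 3 lower genes form an unbroken run could therefore not be read.

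**Figure D3:**
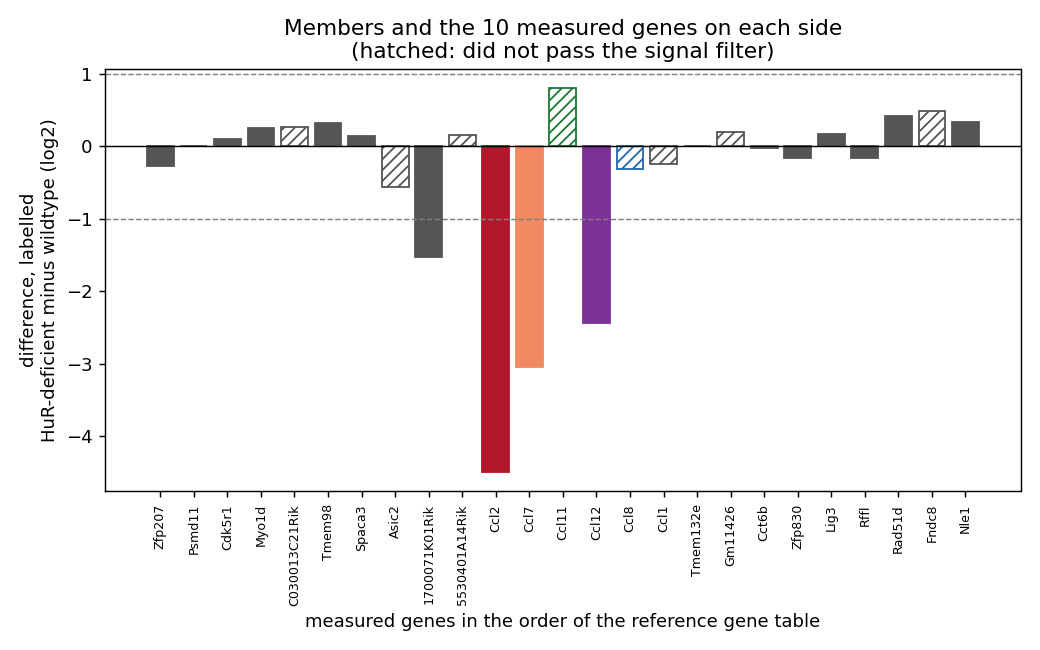
Difference (labelled HuR-deficient minus wildtype, log2, bars from 0) for the 5 chemokine genes and the 10 measured genes on each side, in reference gene order with no distance scale. Hatched bars did not pass the signal filter. Ccl2, Ccl7 and Ccl12 reach -4.49, -3.04 and -2.44, and 1700071K01Rik, at -1.53, is the one other gene past the dashed 2-fold line.

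A second group of CC chemokine genes follows on the same chromosome, with 29 measured genes between Ccl8 and the first of them, Ccl5. Ccl5, which attracts T cells and monocytes, had 12.53 on the array labelled HuR-deficient and 12.41 on the wildtype array. Ccl3 (difference -0.21) and Ccl4 (0.11), which encode macrophage inflammatory proteins, also had signals above 11 on both arrays. Ccl9, a further macrophage chemokine, had 9.75 on the array labelled HuR-deficient and 10.53 on the wildtype array, a difference of -0.78. Ccl6 stayed below the floor on both arrays. High signals lie where array readings compress, so the small differences of Ccl3, Ccl4 and Ccl5 do not show equal mRNA levels.

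Of 14 measured CC chemokine genes outside the 5, 9 passed the filter and none reached 2-fold in either direction, from Ccl9 (-0.78) to Ccl28 (0.37), a chemokine of mucosal surfaces. Their median over all 14 was 0.00. The Ccl28 wildtype signal of 4.27 lay below the floor, so the size of its difference is uncertain. Of 17 measured CXC, CX3C and XC chemokine genes, 14 passed, 1 was at least 2-fold higher and none was lower, with a median over all 17 of 0.10. The higher one was Cxcl9, an interferon-gamma-induced T cell chemoattractant, with 6.61 on the array labelled HuR-deficient and 5.24 on the wildtype array (difference 1.37). The lowest of them was Cxcl2, a neutrophil chemoattractant, at -0.71. At least 2-fold lower among the 26 of 36 chemokine genes that passed were Ccl2, Ccl7 and Ccl12, while Cxcl9 was higher. The shares over all genes that passed were 1.11% lower and 0.882% higher. The 5 genes were chosen with this contrast known, so nothing is read from these counts. Whether the 5 genes differ as a group from other chemokine genes could not be tested with 1 array per genotype.

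**Figure D4:**
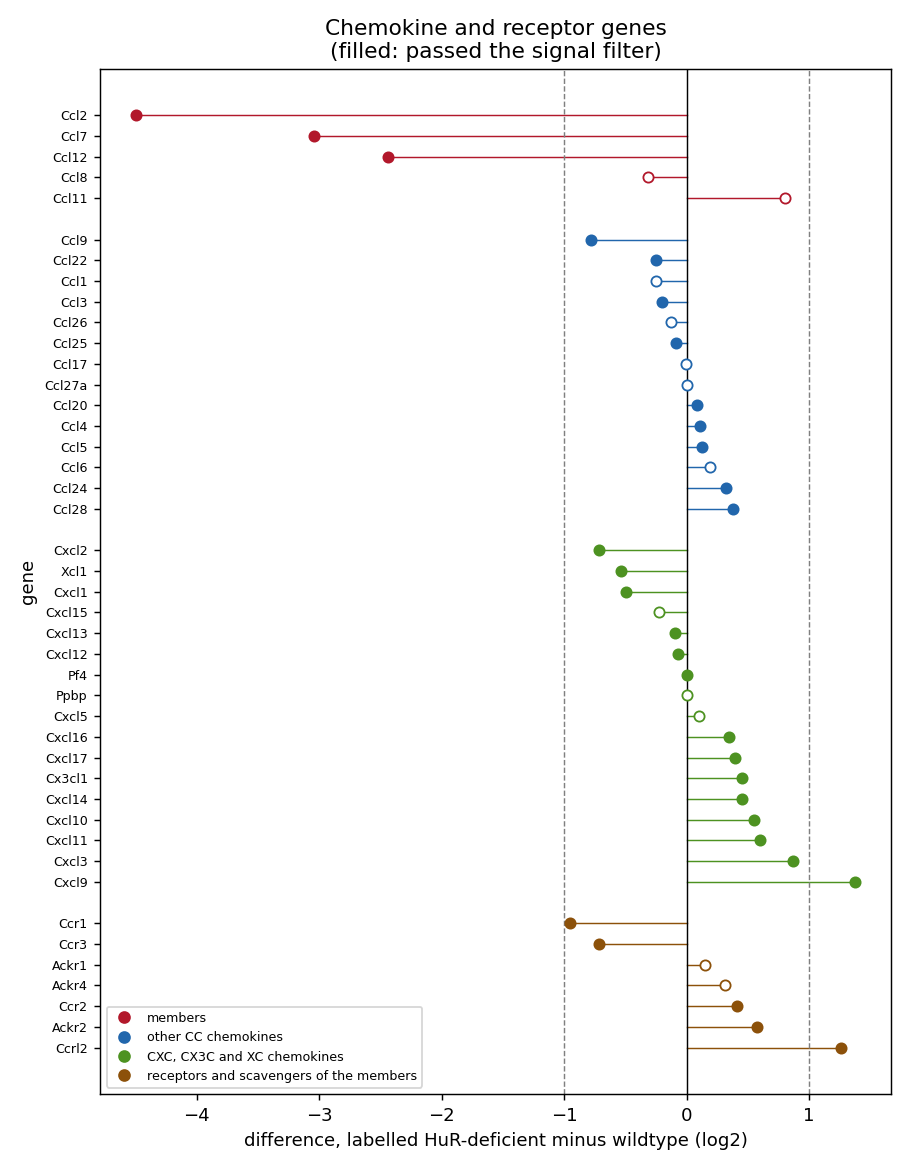
Difference (labelled HuR-deficient minus wildtype, log2, horizontal axis) for each measured chemokine gene and for the receptor genes, with 1 row per gene. Filled points passed the signal filter, and dashed lines mark 2-fold. Ccl2, Ccl7 and Ccl12 stand left of the line, and Cxcl9 (1.37) and Ccrl2 (1.26) stand right of it.

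Of 7 measured genes of chemokine receptors, scavengers and atypical receptors, 5 passed the filter, 1 was at least 2-fold higher and none was lower. Over all genes that passed, 0.882% were higher and 1.11% lower, so nothing is read from 1 call in so short a list. The list was not limited to receptors of the 5 chemokines, and Ccr8 was not in it. The median over all 7 was 0.31. The higher one was Ccrl2, an atypical receptor that binds chemerin, with 8.79 on the array labelled HuR-deficient and 7.53 on the wildtype array (difference 1.26). Ccr2, the receptor of Ccl2, Ccl7 and Ccl12, had 4.99 on the array labelled HuR-deficient and 4.58 on the wildtype array, close to the floor. Ccr1 had 3.92 on the array labelled HuR-deficient and 4.87 on the wildtype array, a difference of -0.95. Ccr3 had 4.09 on the array labelled HuR-deficient and 4.81 on the wildtype array (-0.72). For Ccr1 and Ccr3 the signal labelled HuR-deficient lay below the floor, so the sizes of these differences are uncertain. Ackr2, a scavenger that removes inflammatory CC chemokines, differed by 0.58.

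Of 19 measured transcription factor and inhibitor genes known for acting on the Ccl2 gene, 18 passed the filter and none reached 2-fold. Their median was 0.06. The lowest was Cebpb, which encodes the basic leucine zipper factor C/EBP beta, with 7.20 on the array labelled HuR-deficient and 7.88 on the wildtype array (difference -0.68). The highest was the NF-kappaB subunit gene Nfkb2, with 5.48 on the array labelled HuR-deficient and 4.87 on the wildtype array (0.61). Rela, with a wildtype signal of 4.26 that lay below the floor, differed by 0.16. Nfkbia, an NF-kappaB inhibitor gene that NF-kappaB itself induces, differed by 0.30. Of 8 genes that sense double-stranded RNA or relay it, all passed and none reached 2-fold. They ran from Tbk1 (-0.07), a kinase of the interferon response, to the adaptor gene Mavs (0.56). Over all genes that passed, 1.11% were lower and 0.882% higher, so nothing is read from either list holding none.

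Of 12 genes of RNA-binding proteins that act on mRNA stability, 10 passed the filter and none reached 2-fold, with a median over all 12 of 0.07. Among those that passed, Rc3h1, which encodes the mRNA-decay factor roquin-1, was lowest with a difference of -0.41. Zfp36l1, a decay factor that binds AU-rich elements, was highest of those that passed. Its brighter probe set had 5.92 on the array labelled HuR-deficient and 5.25 on the wildtype array (difference 0.68). The second Zfp36l1 probe set differed by 0.74 but stayed below the floor on both arrays, so no direction is given for it. Zfp36, which encodes tristetraprolin, differed by 0.35. Zc3h12a, which encodes the ribonuclease regnase-1, differed by 0.17. At 2-fold, 1.11% of all genes that passed were lower and 0.882% higher, so nothing is read from this list holding none.

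Other genes tied to the chemokines' function also stayed within 2-fold where they passed the filter. Of 7 measured genes for other monocyte and macrophage factors, 4 passed, from the growth factor gene Vegfa (-0.14) to Csf1 (0.91), which encodes the macrophage growth factor. Csf1 had 4.72 on the array labelled HuR-deficient and 3.81 on the wildtype array. Of 6 genes of chemokine receptor signalling, all passed, from Pik3cg (-0.62), a lipid kinase gene, to Gnai2 (0.18), a G-protein subunit gene. Of 5 genes of proteases that trim chemokines, Mmp9 (0.32) and Mmp14 (0.55) passed. The wildtype signals of Csf1 and Mmp14 (4.24) and the Pik3cg signal labelled HuR-deficient (4.15) lay below the floor. The sizes of these 3 differences are therefore uncertain. As 1.11% of all genes that passed were at least 2-fold lower and 0.882% higher, nothing is read from these lists holding none.

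**Figure D5:**
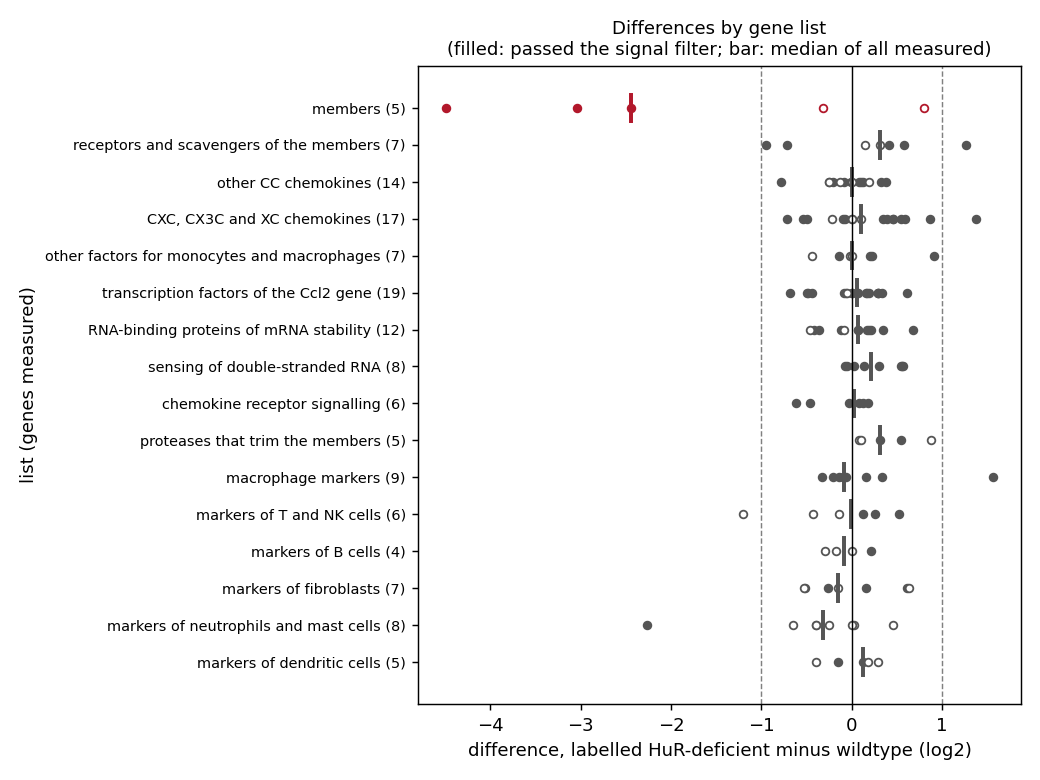
Difference (labelled HuR-deficient minus wildtype, log2, horizontal axis) of each measured gene in 16 lists, with the number measured in brackets and a bar at the list's median. Filled points passed the signal filter. The median of the 5 chemokine genes is -2.44, and most genes of the other lists lie between the dashed 2-fold lines.

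Markers of cell type were set beside these values. All 9 measured macrophage markers passed the filter, with means of 8.78 on the array labelled HuR-deficient and 8.65 on the wildtype array. Lyz2, a lysozyme gene, had 12.20 on the array labelled HuR-deficient and 12.34 on the wildtype array, and Csf1r, the receptor of macrophage growth factor, had 6.61 on the array labelled HuR-deficient and 6.67 on the wildtype array. Itgam was the lowest at -0.33. Adgre1, which encodes a surface receptor of mature macrophages, was the highest at 1.57, the one marker of the 9 past 2-fold. Among all genes that passed, 0.882% were at least 2-fold higher and 1.11% lower, and nothing is read from this 1 marker.

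Fibroblast markers, from cells that are strong sources of Ccl2, Ccl7 and Ccl11 in tissue, averaged 3.92 on each array, with 3 of 7 past the filter, from Col3a1 (-0.26) to Pdgfrb (0.61). T and NK cell markers averaged 3.96 (labelled HuR-deficient) and 4.10 (wildtype), with 3 of 6 past the filter, from Cd3e (0.13) to Cd3d (0.52). The wildtype signals of Cd3e (4.33) and Cd3d (3.96) lay below the floor, so the sizes of these differences are uncertain. B cell markers averaged 3.96 (labelled HuR-deficient) and 4.03 (wildtype), with Pax5 (0.21) the one of 4 past the filter. Dendritic cell markers averaged 4.28 (labelled HuR-deficient) and 4.27 (wildtype), and of 5, Siglech (-0.15) and Xcr1 (0.13) passed. The Siglech signal labelled HuR-deficient, 4.37, was just below the floor. Neutrophil and mast cell markers averaged 3.32 on the array labelled HuR-deficient and 3.75 on the wildtype array, with 2 of 8 past the filter.

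Of these, Kit differed by -0.40, and the alarmin gene S100a8 had 4.04 on the array labelled HuR-deficient and 6.31 on the wildtype array (-2.27). The signals labelled HuR-deficient of S100a8 and of Kit (4.03) lay below the floor, so the sizes of their differences are uncertain. S100a8 was lower together with Ccl2, Ccl7 and Ccl12, while Ly6g, Mpo, Elane and S100a9 were below the floor on both arrays. The part of S100a8-expressing cells in the chemokine differences was not tested. In bulk RNA, fewer cells that make a chemokine and less mRNA per cell cannot be told apart.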

How the data were processed

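The members and gene lists were chosen with earlier results of these data known. The authors deposited RMA values for both arrays, on a log2 scale, with the method named in the submitters' processing notes. That scale was inferred from the values (0.43 to 13.77), and no source used here gives the RMA version, annotation or genome build. RMA equalises the signal distributions of the arrays, which hides any change in total mRNA per cell.

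Of 41345 probe sets, 23521 had 1 gene symbol in the platform's gene table and were used, 1814 had several and 16010 had none. Of 22180 genes, 1082 had more than 1 probe set and were read from the brightest on average. The filter kept genes whose higher value reached 4.38. Counts used a difference of 1 on the log2 scale. The number of arrays limits the precision, and no scanner file was used here.

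There were 16 lists with 150 distinct symbols. Those without a probe set of a single symbol were left out. Named genes were the 5 members, all genes past 2-fold in the lists of CC chemokines, receptors, transcription factors and RNA-binding proteins, otherwise the highest and lowest gene of each list, the 3 genes nearest to Ccl2, Ccl7 and Ccl12, and neighbours in order. Others were named for their role or after their values were seen, among them Ywhaz, Atp6v0d2, Rela, Nfkbia, Zfp36, Zc3h12a, Lyz2 and Csf1r. Gene order came from the RefSeq table of GRCm38.p6. Alternatives were a further quantile normalisation, centring on the median difference, removal of a loess trend (span 0.3), averaging of probe sets, and other folds and filters. The counting step was tested on simulated data. The software was Biopython 1.88, matplotlib 3.10.9, statsmodels 0.14.6, pandas 2.3.3 and numpy 2.4.6, under Python 3.11.15.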

Additional observations from a re-analysis of the deposited data

How the results depend on the processing

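Centring and averaging of probe sets could not move the 5 chemokine differences, since the median difference was 0.00 and each gene had 1 probe set. Under a further quantile normalisation and removal of the loess trend they moved by less than the spread of genes of like signal, and all values lay between -4.50 and -4.48 for Ccl2, -3.04 throughout for Ccl7, -2.44 and -2.42 for Ccl12, -0.32 and -0.29 for Ccl8, and 0.77 and 0.81 for Ccl11. Ccl2, Ccl7 and Ccl12 were the lower members at 1.5-fold, 3-fold and 4-fold, with no filter and with the filter at the 75th percentile. The counts over all genes depended on both choices. At 1.5-fold, 648 genes were higher and 633 lower, at 3-fold 22 and 33, and at 4-fold 7 and 19. With no filter, 185 were higher and 232 lower, and with the filter at the 75th percentile 63 and 86. No paired analysis was possible because each genotype has 1 array. For the same reason no array could be left out, and these ranges hold no error between cultures.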
